A study of Mus musculus with 6 samples.

Results

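The genes of the elastic fibre and its microfibrils were followed in cultured mouse bone marrow mesenchymal stem cells (BMMSCs) after siRNA against Tet1 and Tet2, enzymes that oxidise methylated cytosine in DNA. The 10 genes were Eln, Fbn1, Fbn2, Fbln1, Fbln2, Fbln5, Efemp2, Mfap2, Mfap5 and Emilin1. They were taken by symbol from a table of 36870 symbols, and each had 1 row there. Of the 10, 6 (Fbn1, Mfap2, Mfap5, Fbln1, Fbln5 and Efemp2) were lower after siRNA. Fbln2 and Emilin1 did not pass the test in either direction, and Eln and Fbn2 were too low to be tested. By the same test, 29.8% of all 13266 genes tested were lower.

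Elastic fibres give stretch and recoil to vessel wall, lung and skin. They form when soluble elastin, the product of Eln, is deposited on a scaffold of fibrillin microfibrils, guided by fibulins, and is then cross-linked by lysyl oxidases. Microfibrils also occur without elastin, as in bone, where they hold latent TGF-beta and BMPs in the matrix.

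RNA-seq was performed on 6 libraries, 3 called Control and 3 called siTet1/Tet2. Both groups were BMMSCs of strain C57BL/6 by the labels (the methods name purchased female C57BL/6J mice), which here are the adherent cells grown out of marrow flushed from femurs and tibias, so that macrophages can be among them. The siTet1/Tet2 cells received siRNAs against both genes together. The Control cells received non-targeting siRNA by the labels and by the siRNA methods, whereas the RNA-sequencing methods speak of vehicle. The labels give passage 2 and the methods the passage before it. The methods give ages for ovariectomized and knockout mice of other experiments, and no age is tied to these libraries. Nothing says whether the 3 libraries of a group came from separate mice or cultures, so p-values measure only the spread between these libraries. Values are RPKM, read numbers divided by transcript length and by the size of the library, so levels of different genes can be set side by side. The lowest value listed was 0.001 RPKM.

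The targeted genes were checked first. Tet2 was at 2.57, 4.08 and 3.71 RPKM in the controls and at 0.358, 0.238 and 0.202 RPKM in the siTet1/Tet2 libraries, with no overlap. Tet1 was at 0.032, 0.098 and 0.05 RPKM in the controls and at 0.001, 0.01 and 0.001 RPKM after siRNA, also with no overlap but too low to be tested. Stromal and macrophage markers moved between the groups. The summed RPKM of 25 stromal markers lay between 1985 and 2637 in the Control libraries and between 338 and 620 in the siTet1/Tet2 libraries, and that of 13 macrophage markers went from between 7616 and 10203 to between 15757 and 18880. Of the stromal markers, 19 of the 22 tested were lower after siRNA, 1 was higher (Vcam1) and 2 did not pass (Nt5e and Mcam). Thy1, Lepr and Lum, at 0.146 RPKM or less in every library, were too low to be tested. Of the macrophage markers, 7 of 13 were higher, 3 lower and 3 did not pass, so that the list went both ways. Lyz2, a lysozyme of myeloid cells, carried most of the rise of the sum, from 4439 ± 783 to 11320 ± 1440 RPKM (SD, n = 3). Without it the sums lay between 4068 and 5190 and between 5915 and 6277. The markers that were lower were Fcgr1, from 109 ± 10 to 27.8 ± 2.53 RPKM, Aif1, from 51.8 ± 8.36 to 36.1 ± 2.43 RPKM, and Mrc1, from 170 ± 14.2 to 141 ± 12.3 RPKM. In bulk RNA, fewer cells of a type and less RNA of a gene per cell cannot be told apart, and the part of cell make-up in the values below was not tested.

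Eln, the gene of elastin itself, lies on the minus strand of chromosome 5 (GRCm38, chr5:134702593-134747323). It was at the lowest listed value in 5 of the 6 libraries. In siTet1/Tet2 replicate 3 it was at 0.016 RPKM, by an estimate of the depth about 2 reads. The members that were measured in these cells were therefore the scaffold and assembly genes and not elastin.

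The fibrillins are the large glycoproteins that form the body of the microfibril. Fbn1, the main fibrillin of adult tissues, lies on the minus strand of chromosome 2 (chr2:125300594-125507993) with 65 exons in its longest coding transcript. Its level was 29.9, 31.3 and 46.6 RPKM in the controls and 5.25, 6.43 and 9.39 RPKM in the siTet1/Tet2 libraries. The highest siRNA library was far below the lowest control library. The means were 35.9 ± 9.26 and 7.02 ± 2.14 RPKM (SD, n = 3 in each group), a 5.11-fold decrease of the level. On the scale of log2(RPKM + 1), the difference was -2.21 (standard error 0.213, limma, Benjamini-Hochberg adjusted p = 9.93e-05 over 13266 genes). An annotated gene on the other strand, Gm9913, covers 20.1% of the exonic bases of Fbn1, and whether the counting used strand is not given in the sources used here.

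Fbn2, the fibrillin that prevails in development, was at 0.094, 0.08 and 0.135 RPKM in the controls and at 0.001, 0.007 and 0.005 RPKM in the siTet1/Tet2 libraries. The groups did not overlap. By the estimate of the depth these values stood for about 39, 29 and 48 reads against 0, 3 and 2 reads, so no fold is given. Its mean over the 6 libraries was under the 0.1 RPKM needed to enter the test. Without that minimum, its adjusted p was 0.00373 from limma. Fbn1 had the higher level of the fibrillins in all 6 libraries.

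The microfibril-associated glycoproteins bind fibrillin and tropoelastin. Mfap5 (MAGP-2), on the plus strand of chromosome 6 (chr6:122505845-122529290), was at 4.92, 4.12 and 4.15 RPKM in the controls and at 0.908, 1.09 and 1.61 RPKM after siRNA. The groups were well apart, with means of 4.40 ± 0.452 and 1.21 ± 0.366 RPKM (SD, n = 3), a 3.65-fold decrease. The difference on the log2(RPKM + 1) scale was -1.30 (standard error 0.130, adjusted p = 0.000116 from limma).

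Mfap2 (MAGP-1), on the plus strand of chromosome 4 (chr4:141010418-141015984), was the lowest of the members tested. It was at 0.64, 0.891 and 0.53 RPKM in the controls and at 0.081, 0.149 and 0.127 RPKM after siRNA, again with no overlap. The level of 0.687 ± 0.185 RPKM fell 5.77-fold to 0.119 ± 0.0347 RPKM (SD, n = 3), but the log2(RPKM + 1) difference was only -0.59 (adjusted p = 0.000924 from limma), since a pseudocount of 1 understates the change of a gene under 1 RPKM. The siRNA values stood for about 3, 6 and 5 reads. The ratio of Mfap2 to Mfap5, each per length, was 0.13, 0.216 and 0.128 in the Control libraries and 0.0892, 0.136 and 0.0787 after siRNA. These ranges overlapped, and the log2 ratios differed by -0.64 (exact two-sided permutation test, p = 0.3, adjusted over 2 pairs 0.3, where 3 libraries against 3 cannot go below 0.1).

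Emilin1, a glycoprotein at the interface of elastin and microfibrils, lies on the plus strand of chromosome 5 (chr5:30913402-30921277). It stood at 26.0, 25.1 and 29.7 RPKM in the controls and at 25.8, 26.4 and 27.5 RPKM in the siTet1/Tet2 libraries. The siRNA values lay inside the range of the control values. The log2(RPKM + 1) difference was -0.016 with a 95% interval from -0.189 to 0.157 (adjusted p = 0.88 from limma), and the decrease of Fbn1 lay far outside that interval.

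**Figure D1:**
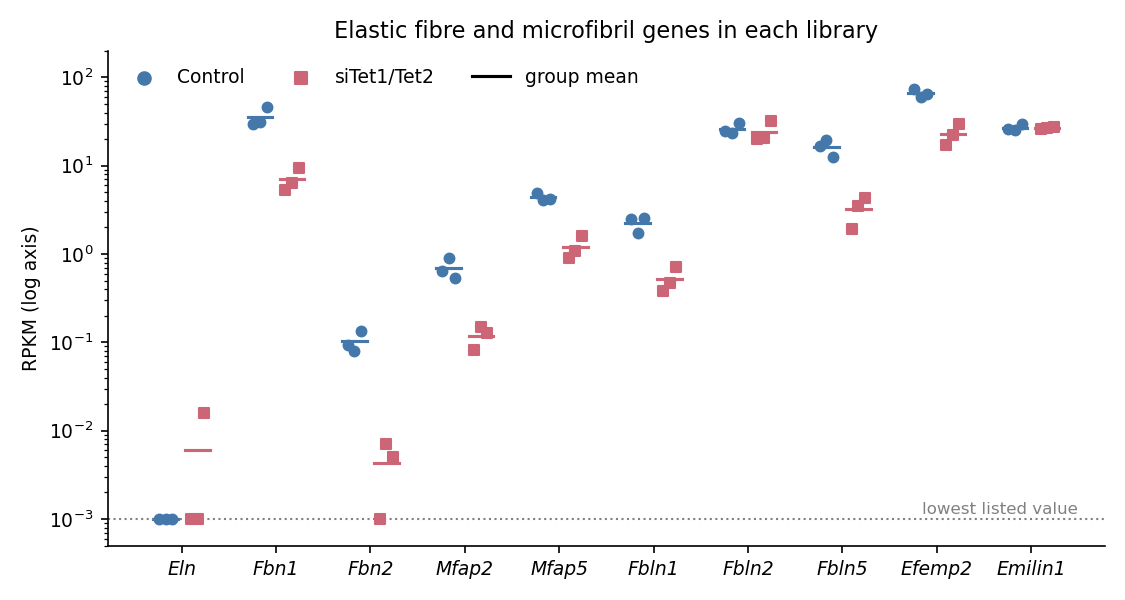
RPKM of the 10 genes in each library on a log axis, with circles for Control 1 to 3, squares for siTet1/Tet2 1 to 3 (left to right) and a line at each group mean; the dotted line is the lowest listed value of 0.001 RPKM. The squares lie below the circles in 7 genes, overlap them in Fbln2 and Emilin1, and Eln is on the dotted line in 5 of 6 libraries.

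The fibulins bridge microfibrils and elastin. Fbln5 and Efemp2 (fibulin-4) are both needed for elastic fibres to form, and each binds tropoelastin and brings in lysyl oxidases. Fbln5, on the minus strand of chromosome 12 (chr12:101746565-101819055), was at 16.9, 19.3 and 12.4 RPKM in the controls and at 1.92, 3.52 and 4.31 RPKM after siRNA. The groups did not overlap, and the mean level went from 16.2 ± 3.51 to 3.25 ± 1.22 RPKM (SD, n = 3), a 4.98-fold decrease. The log2(RPKM + 1) difference was -2.04 (standard error 0.230, adjusted p = 0.000214 from limma).

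Efemp2, on the plus strand of chromosome 19 (chr19:5473954-5482517), was the most abundant member in the Control libraries. It was at 73.2, 59.4 and 65.5 RPKM there and at 16.9, 22.02 and 29.7 RPKM after siRNA. The groups were apart, and the decrease from 66.1 ± 6.95 to 22.9 ± 6.41 RPKM (SD, n = 3) was 2.89-fold. The log2(RPKM + 1) difference was -1.52 (standard error 0.175, adjusted p = 0.000241 from limma). Mus81, on the other strand, shares 4.57% of the exonic bases of Efemp2 and was at 6.50 to 9.70 RPKM over the 6 libraries.

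The ratio of Fbln5 to Efemp2, each per length, was also computed. It was 0.231, 0.325 and 0.189 in the Control libraries and 0.113, 0.16 and 0.145 after siRNA. All 3 siRNA ratios were below the 3 control ratios. The difference of -0.81 in the log2 ratio reached the smallest p that 3 against 3 libraries allow (exact two-sided permutation test, p = 0.1, adjusted over 2 pairs 0.2).

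Fbln1, a fibulin of basement membranes and of elastic fibres, lies on the plus strand of chromosome 15 (chr15:85205949-85286535). Its level was 2.46, 1.71 and 2.57 RPKM in the controls and 0.386, 0.474 and 0.711 RPKM after siRNA. With no overlap, the mean fell 4.29-fold from 2.25 ± 0.467 to 0.524 ± 0.168 RPKM (SD, n = 3), and the log2(RPKM + 1) difference was -1.09 (adjusted p = 0.000264 from limma).

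Fbln2, which binds fibrillin and elastin and lies on the plus strand of chromosome 6 (chr6:91212455-91272540), did not pass the test. It was at 24.8, 23.4 and 30.8 RPKM in the controls and at 20.1, 20.8 and 32.1 RPKM after siRNA. One siRNA library, replicate 3, was above all 3 Control libraries and the other siRNA libraries were below them. The log2(RPKM + 1) difference was -0.13 with a 95% interval from -0.534 to 0.271 (adjusted p = 0.572 from limma).

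Promoter sequence is shown for Fbln5, Efemp2 and Fbln1, members that fell and whose 250 bases before the start hold no annotated exon, because the cytosines that Tet enzymes act on stand mostly in CpG. Entries from RefSeq on GRCm38.p6, matched by symbol, were used for 7 of the 10 members. The promoters of Eln, Fbn2 and Mfap5 were not examined. The windows are written 5′ to 3′ on the strand of the gene, with each CpG in capitals. They are chr12:101819120-101819369 on the minus strand, chr19:5473696-5473945 on the plus strand and chr15:85205699-85205948 on the plus strand.
Fbln5: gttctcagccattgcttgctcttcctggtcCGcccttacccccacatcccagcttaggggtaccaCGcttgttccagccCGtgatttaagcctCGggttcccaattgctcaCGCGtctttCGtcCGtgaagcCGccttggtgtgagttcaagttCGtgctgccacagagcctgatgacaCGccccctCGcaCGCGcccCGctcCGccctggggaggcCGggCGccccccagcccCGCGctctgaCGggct
Efemp2: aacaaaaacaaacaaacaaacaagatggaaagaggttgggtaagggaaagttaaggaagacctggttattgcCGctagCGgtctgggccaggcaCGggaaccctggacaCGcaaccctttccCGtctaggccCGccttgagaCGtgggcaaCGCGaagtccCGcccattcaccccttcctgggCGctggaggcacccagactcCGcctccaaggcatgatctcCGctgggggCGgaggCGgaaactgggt
Fbln1: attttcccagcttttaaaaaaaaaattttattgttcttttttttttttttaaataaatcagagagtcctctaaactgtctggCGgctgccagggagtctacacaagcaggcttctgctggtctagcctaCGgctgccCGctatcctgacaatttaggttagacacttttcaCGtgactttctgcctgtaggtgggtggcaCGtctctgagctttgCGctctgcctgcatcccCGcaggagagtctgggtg
The Fbln5 window held 21 CpG, Efemp2 15 and Fbln1 7, against a median of 6 over 32851 promoter windows of the same length. Their percentiles in CpG number among those windows were 84.4, 73.6 and 55.3. For each gene the entry nearest its annotated start was used. The entries used began 64 (Fbln5), 8 (Efemp2) and 0 bases (Fbln1) from that start. Just after their start, those of Fbln5 and Efemp2 did not match an annotated transcript. The counts depend on the choice of entry, since other entries held 6 CpG for Fbln5, 27 and 33 for Efemp2 and 14 for Fbln1. The windows of Fbn1, Fbln2 and Emilin1 overlap annotated exons over their whole length and are not described. The Mfap2 window overlaps an exon by 6 bases and is not printed. It held 5 CpG (percentile 47), and another Mfap2 entry held 18. The GC box GGGCGG, searched on both strands and itself holding a CpG, occurred 2 times in the Fbln5 and 2 times in the Efemp2 window, and in 32.7% of all windows. The RUNX letters TGTGGT (14% of all windows), the AP-1 letters TGACTCA (4.46%), TATAAA (12.4%) and the TEAD letters GGAATG (12.6%) were in none of the 3 windows on either strand. The Mfap2 window held the TEAD letters 1 time. Methylation was not measured in these libraries.

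Counted together, 6 of the 8 members tested were lower and 0 were higher at an adjusted p under 0.05 (limma, Benjamini-Hochberg), and 6 passed at an unadjusted p under 0.05. Of all 13266 genes tested, 29.8% were lower and 14.7% higher. The thresholds of the study, an unadjusted p under 0.05 and a fold over 2, were applied to the limma fit of log2(RPKM + 1). By them, 5 members were altered and all were lower, against 5.63% of all genes tested. Mfap2 fell short of that fold on the log2(RPKM + 1) scale. Every siTet1/Tet2 library was below every Control library in 6 of the 8 members tested, against 35.9% of all genes tested. With Fbn2 included it was 7 of all 10, but the 35.9% does not cover genes too low to be tested. The median log2 fold change was -1.19 over the 8 members and -0.087 over all genes tested. Another scaling changed the counts over all genes. After quantile normalization, the median of all genes was 0.055, with 2627 lower and 3607 higher in place of 3952 and 1953, while 6 members were still lower and their median was -0.98.

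**Figure D2:**
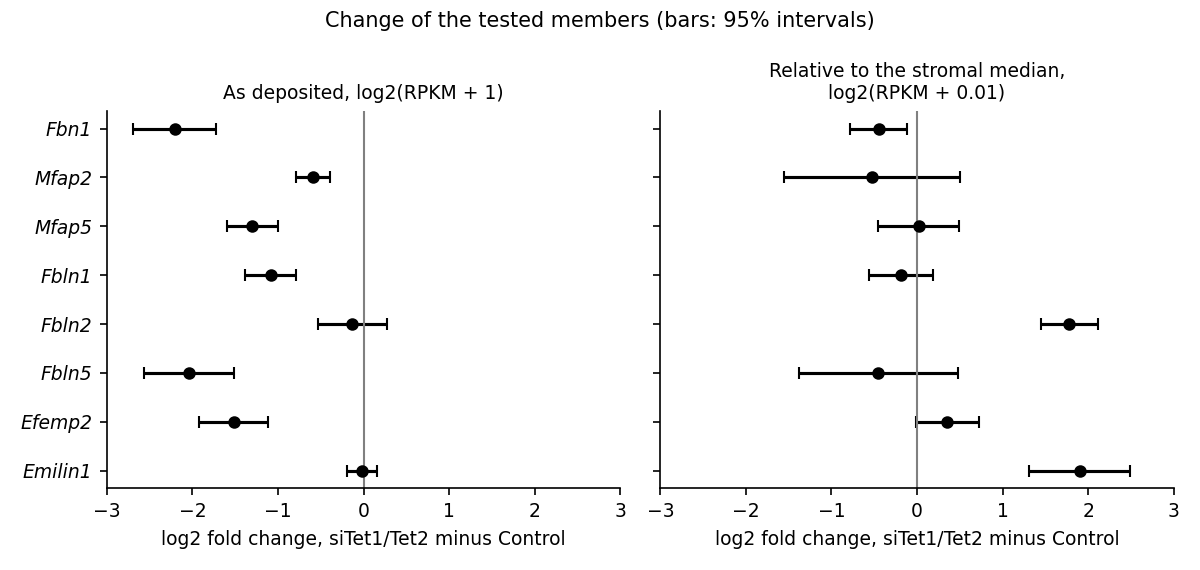
Log2 fold change (siTet1/Tet2 minus Control) of the 8 members tested, with 95% intervals. Left, log2(RPKM + 1) as deposited, with intervals from limma; right, log2(RPKM + 0.01) after subtracting the stromal median of each library, with intervals from each gene's own variance. On the left, 6 genes lie below 0, Fbln2 at -0.13 and Emilin1 at -0.016; on the right, Fbln2 at 1.78 and Emilin1 at 1.90 lie above 0.

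Since stromal markers fell too, the members were also compared with them. In each library, the median log2(RPKM + 0.01) of the 21 stromal markers that had a control mean of at least 1 RPKM was subtracted. That median was 1.92 lower on the log2 scale after siRNA, a 3.78-fold decrease. On this scale the value of a library is the level of a gene relative to that median. A difference between the groups near 0 means that a gene fell as much as the typical stromal marker.

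Relative to the stromal median, Fbln2 and Emilin1 stood apart from the other members, but not from most genes. Fbln2 was at -0.481, -0.443 and -0.451 in the Control libraries and at 1.5, 1.09 and 1.37 after siRNA, with a difference of 1.78 (95% interval 1.45 to 2.11, adjusted p = 0.0051 with gene-wise variance and limma). Emilin1 was at -0.417, -0.34 and -0.504 and at 1.86, 1.44 and 1.14, with a difference of 1.90 (95% interval 1.31 to 2.49, adjusted p = 0.0051 with gene-wise variance and limma). Both genes were thus higher in relation to stromal markers in all 3 siRNA libraries. Their own levels did not pass the test, so these differences mainly restate the fall of the stromal median. Over all genes tested, the median difference was 1.80, near that of both genes. With limma's moderated variance, the adjusted p were 9.81e-09 and 1.26e-09, but that fit had a median of 53060 degrees of freedom where the 6 libraries leave 4, and so treats the variance as all but known. Of all genes tested, 89.0% were higher by this measure with moderated variance and 87.2% with gene-wise variance, so that 2 of 8 is not a high share.

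Of the other 6 members, 5 had intervals that held 0. Mfap5 differed by 0.021 (95% interval -0.454 to 0.496) and Fbln1 by -0.19 (95% interval -0.557 to 0.186). Efemp2 differed by 0.36 (95% interval -0.00946 to 0.72), and its 3 siRNA values of 1.25, 1.17 and 1.25 were above the control values of 1.08, 0.899 and 0.636. The intervals of Fbln5 (-0.45, from -1.38 to 0.481) and Mfap2 (-0.52, from -1.55 to 0.502) were wide. The directions of low members depended on the pseudocount. With a pseudocount of 1 in place of 0.01, Fbln1 (0.72, adjusted p = 0.00498), Mfap2 (1.22, adjusted p = 4.47e-06) and Mfap5 (0.51, adjusted p = 0.0441, all from limma) were higher, and 5 members were higher in place of 2. Without Control replicate 3, Fbln5 was lower (-0.75, adjusted p = 0.0241 from limma). These calls used limma's moderated variance and were not repeated with gene-wise variance. The share of all genes higher with a pseudocount of 1 is not given here.

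Fbn1 was -0.212, -0.0263 and 0.144 relative to the stromal median in the Control libraries and -0.436, -0.601 and -0.404 after siRNA. The groups did not overlap. The difference of -0.45 had an adjusted p of 0.0233 with gene-wise variance (95% interval -0.781 to -0.117) but 0.135 with limma's moderated variance, so the call depends on the variance used. With moderated variance 0 members were lower, against 1.99% of all genes tested, and with gene-wise variance Fbn1 alone was, against 2.13%. With all 8 genes, the median difference was -0.082 for the members and 1.80 for all genes tested.

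The libraries of the siTet1/Tet2 group kept a common order in the members. Replicate 1 was the lowest of its group in 8 of the 8 members other than Eln and Fbn2, and replicate 3 the highest in 7 of 8. The stromal markers had the same order, with replicate 1 lowest in 19 of 21 and replicate 3 highest in 19 of 21. In the Control group, replicate 3 was the highest in 4 of the 8 members and in 18 of the 21 stromal markers. Fbln5 and Mfap2 were at their lowest control level in that library, while Fbn1 was at its highest. All these genes share the same libraries, and the order over all genes tested is not given here.

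**Figure D3:**
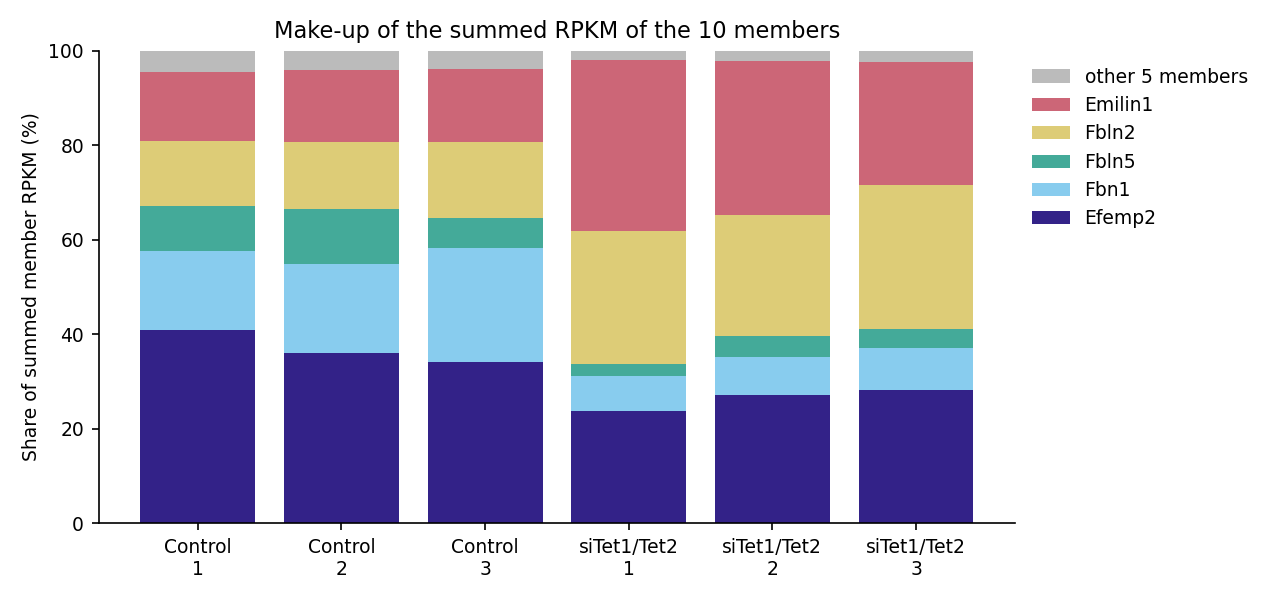
Stacked bars of the share (%) of the summed RPKM of the 10 genes held by each gene, for the 6 libraries. Fbln2 and Emilin1 together take 28.4 to 31.5% of the sum in the Control libraries and 56.5 to 64.3% in the siTet1/Tet2 libraries.

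The make-up of the gene group therefore differed between the conditions. The summed RPKM of the 10 genes was 179 ± 13.6 in the Control libraries and 85.9 ± 17.5 in the siTet1/Tet2 libraries (SD, n = 3). Efemp2 held 34.1 to 40.9% of it in the Control libraries and 23.7 to 28.1% after siRNA, and Fbn1 held 16.7 to 24.2% and 7.35 to 8.91%. Fbln2 and Emilin1 together held 28.4, 29.4 and 31.5% in the Control libraries, and 64.3, 58.4 and 56.5% after siRNA. These shares are bound to one another and follow from the levels above.

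In order of mean level, the Control libraries had Efemp2, Fbn1, Emilin1, Fbln2, Fbln5, Mfap5, Fbln1, Mfap2, Fbn2 and Eln. Emilin1 (26.9 RPKM) and Fbln2 (26.4 RPKM) overlapped, and every other pair of neighbours was apart in all 3 libraries. After siRNA the order began with Emilin1 (26.6 RPKM), Fbln2 (24.4 RPKM) and Efemp2 (22.9 RPKM), neighbours that overlapped. Fbn1 (7.02 RPKM), Fbln5, Mfap5, Fbln1 and Mfap2 followed, each apart from the next, and Eln and Fbn2 overlapped at the bottom.

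Other genes of the elastic fibre pathway were taken from 7 lists with 48 genes in all. Of the 34 tested, 16 were lower, 8 were higher and 10 did not pass, with a median log2(RPKM + 1) difference of -0.10. The counts of the lists that follow are to be read against the 29.8% lower and 14.7% higher over all genes tested, and several, such as those of the proteases, lie near these shares. The cross-linking genes had the most decreases, with 5 of 6 lower and a median of -1.59. Loxl2, a lysyl oxidase, fell from 40.7 ± 4.81 to 10.2 ± 3.63 RPKM (SD, n = 3, adjusted p = 0.000157 from limma). Loxl1, the lysyl oxidase that maintains elastic fibres, fell from 25.1 ± 3.05 to 6.05 ± 1.95 RPKM (adjusted p = 0.000125) and Loxl3 from 68.2 ± 2.92 to 21.3 ± 6.81 RPKM (adjusted p = 0.000206). Atp7a, the copper pump that loads lysyl oxidases, was at 16.98 ± 1.82 and 19.4 ± 1.32 RPKM and did not pass (adjusted p = 0.13).

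The relatives of fibulins and microfibril proteins were split. Only 3 of 11 were high enough to test. Efemp1 (fibulin-3), a close relative of Efemp2, fell from 23.2 ± 1.81 to 3.28 ± 0.998 RPKM (SD, n = 3), a 7.06-fold decrease (adjusted p = 1.42e-05 from limma). Mfap3 rose from 9.58 ± 0.433 to 15.8 ± 0.594 RPKM (adjusted p = 0.000161) and Emilin2 from 40.6 ± 2.37 to 47.2 ± 1.79 RPKM (adjusted p = 0.0268). The rise of Emilin2 was not called when each library was rescaled to the same sum.

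Latent TGF-beta binding proteins tether the growth factor to microfibrils, and 2 of 4 were lower. Ltbp1 fell from 15.0 ± 1.09 to 3.54 ± 1.3 RPKM (SD, n = 3, adjusted p = 0.000118 from limma) and Ltbp2 from 12.1 ± 1.75 to 5.52 ± 2.03 RPKM (adjusted p = 0.00365). Ltbp3 was at 20.4 ± 2.32 and 19.8 ± 1.02 RPKM and did not pass. Of the ADAMTS and ADAMTS-like genes whose products bind microfibrils, 3 of 5 tested were lower and 1 was higher. Adamtsl4, which binds fibrillin-1, fell from 14.4 ± 1.72 to 3.83 ± 0.925 RPKM (adjusted p = 5.76e-05), whereas Adamtsl5 rose from 10.6 ± 1.08 to 13.4 ± 0.0243 RPKM (adjusted p = 0.0138), a call lost when each library was rescaled to the same sum.

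Of the integrins that bind fibrillin or fibulin-5, 3 of 6 tested were lower, 1 was higher and 2 did not pass. Itga5 fell from 129 ± 2.03 to 72.1 ± 6.25 RPKM (SD, n = 3, adjusted p = 5.64e-05 from limma) and Itgb1 from 383 ± 19.4 to 273 ± 26.5 RPKM (adjusted p = 0.00227), while Itgb5 rose from 136 ± 8.51 to 227 ± 4.45 RPKM (adjusted p = 6.48e-05). All 3 genes of the elastin-receptor complex, which are lysosomal enzymes as well, were higher. Ctsa rose from 602 ± 68.3 to 839 ± 37.4 RPKM, Glb1 from 65.0 ± 0.924 to 80.9 ± 2.8 RPKM and Neu1 from 28.2 ± 1.89 to 33.3 ± 1.8 RPKM, with adjusted p of 0.00553, 0.00228 and 0.0298 from limma. That of Neu1 was 0.0505 when each library was rescaled to the same sum.

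Among the proteases that degrade elastin or its scaffold, 2 of 7 tested were lower, 1 was higher and 4 did not pass. Mmp2, a gelatinase of stromal cells, fell from 40.8 ± 4.47 to 6.92 ± 2.27 RPKM (SD, n = 3, adjusted p = 3.85e-05 from limma), and Mmp14, which activates it, from 66.2 ± 5.31 to 41.3 ± 2.11 RPKM (adjusted p = 0.000195). Ctsk, the collagenase of osteoclasts, rose from 10.6 ± 1.12 to 14.3 ± 1.04 RPKM (adjusted p = 0.00921). Mmp12, the elastase of macrophages, was at 440 ± 24.4 and 434 ± 28.9 RPKM and did not pass (adjusted p = 0.86).

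**Figure D4:**
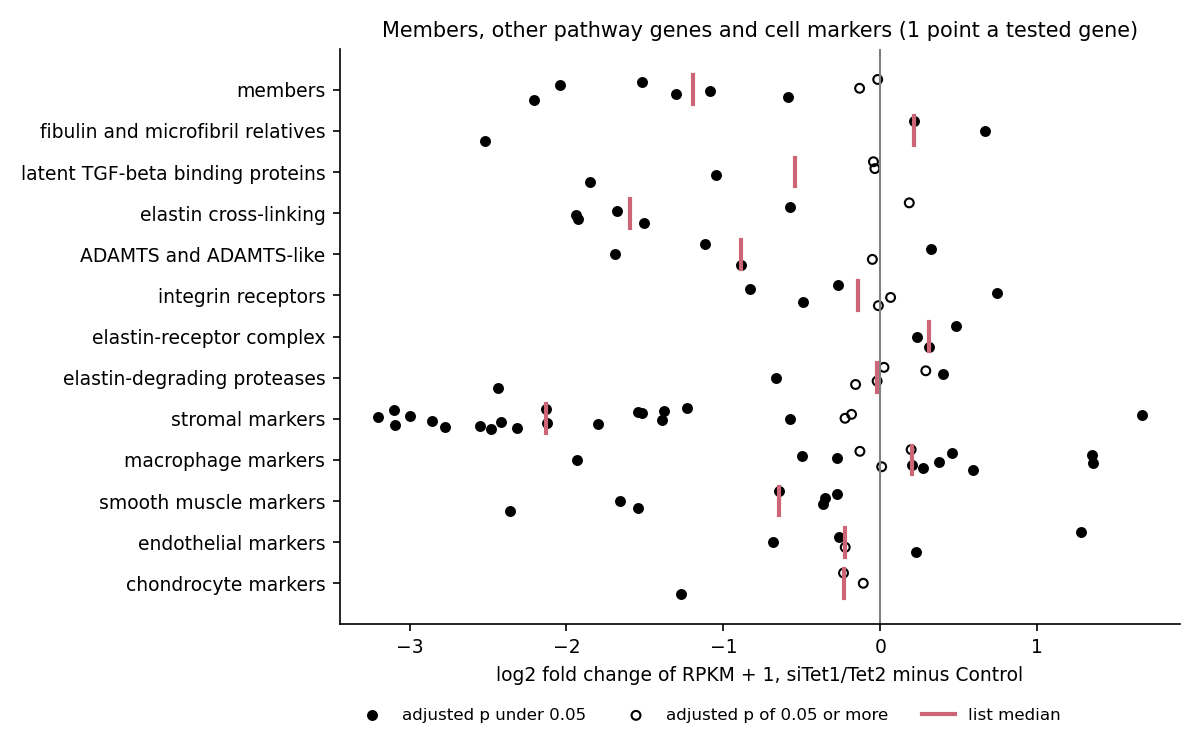
Log2 fold change of RPKM + 1 (siTet1/Tet2 minus Control) for every tested gene of the members, the 7 pathway lists and 5 marker lists, 1 point a gene; filled points had an adjusted p under 0.05, and the vertical bar is the list's median. The members (median -1.19) and the cross-linking genes (median -1.59) lie between the stromal markers (median -2.13) and the macrophage markers (median 0.20). The medians of most other lists lie there too. A pseudocount of 1 understates the fall of low genes. With 0.01, the members' median was -1.999, and relative to the stromal median it was -0.082.

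Markers of other cell types moved beside the members. All 7 smooth muscle markers tested were lower (median -0.65), and the summed RPKM of that list was 1126 to 1328 in the Control libraries and 233 to 401 after siRNA. Acta2 and Tagln, which cultured stromal cells also express, held most of that sum, while Myh11, a marker of mature smooth muscle, was at 0.414 ± 0.0903 and 0.0977 ± 0.0552 RPKM (SD, n = 3). The 5 endothelial markers tested were 2 lower, 2 higher and 1 not passed, with summed levels of 4.25 to 5.04 and 7.33 to 7.71 RPKM and Tek near the lowest listed value. Vwf, which rose from 1.93 ± 0.199 to 6.10 ± 0.157 RPKM, set that direction, and without it the sums were 2.42 to 2.88 RPKM in the controls and 1.35 to 1.46 RPKM after siRNA. Of the 3 chondrocyte markers tested, 1 was lower (Col2a1) and 2 did not pass, with summed levels of 5.76 to 8.05 and 1.80 to 3.93 RPKM and Acan near the lowest listed value. Their part in the members' values was not tested.

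Fbn1 had close company in the pattern over the 6 libraries. Likeness was searched for in 11043 genes whose mean reached 1 RPKM, and was taken as the root mean square difference between the profiles of log2(RPKM + 1), each centred on its mean. Fat1, a giant protocadherin, was the most like Fbn1 at 0.0482, with 23.9 RPKM in the Control and 4.65 RPKM in the siTet1/Tet2 libraries. Mrc2, a collagen receptor of stromal cells, followed at 0.0839 with 24.1 and 4.36 RPKM, and Kirrel, an adhesion protein, at 0.0839 with 13.2 and 2.34 RPKM. The libraries are shared by all these genes, and the order of likeness is a description.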

How the data were processed

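Total RNA of 6 libraries had been sequenced as paired reads on an Illumina HiSeq. The authors mapped the reads to GRCm38 with DNASTAR Lasergene, and the deposited table lists RPKM, not log-transformed (FPKM in the methods). The annotation, strand use and treatment of reads with several matches are not given in the sources used here. Of 36915 rows, 18360 stand at the lowest listed value throughout. A column of the authors' p-values was not used. Read totals are not listed. Steps between low values gave an estimate of 32300000 to 38600000 reads a library, but only 51.1 to 59.6% of those values lay within 0.1 of a whole read, so no count test was run.

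Groups came from the sample labels. Genes reaching a mean of 0.1 RPKM (13266) were tested two-sided on log2(RPKM + 1) with limma 3.58.1 (lmFit, eBayes with trend) in R 4.3.3, with Benjamini-Hochberg adjustment over all of them. Of rows sharing a symbol (37 symbols), that with the highest mean was used. Fold changes on this scale understate those of low genes, and folds of RPKM are ratios of group means. For the second scale, log2(RPKM + 0.01) was centred in each library on the median of 21 stromal markers. There the moderated fit reached a median of 53060 total degrees of freedom against 4 residual, so a fit with gene-wise variance was added after the data had been seen. Both take the centring as given. Of 4 planned ratios, Eln to Fbn1 and Fbn1 to Fbn2 were not computed, nor was likeness to Eln, since Eln or Fbn2 stood at the lowest listed value in some libraries.

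The members, lists and tests were chosen with earlier results of these data known. All members are named. Pathway genes are named with a group mean of at least 5 RPKM, at most the 3 with the largest log2 fold change a list. Atp7a, Mmp12 and the marker genes were added after their values were seen. Positions are from GENCODE M21. Python 3.11.15 with numpy 2.4.6, pandas 2.3.3 and matplotlib 3.10.9 was used. Replicate numbers are shared by the groups in the labels. Deviations from the group means correlated across genes at 0.149, 0.117 and 0.462 for libraries with the same number, each over 0.1, and a fit with the number as a block was therefore run, although Control 1 with siTet1/Tet2 2 reached 0.332.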

Additional observations from a re-analysis of the deposited data

How the results depend on the processing

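The number of members lower at an adjusted p under 0.05 was 6 and lay between 5 and 7 over 16 alternatives (pseudocounts of 0.1 and 0.01, no minimum or a minimum of 1 RPKM, 3 other scalings, eBayes without trend, the replicate block, summed rows and each library left out). It was 6 without any 1 library. The number altered was 5 and lay between 4 and 6 over 17 alternatives, and 0 members were higher in each. The median log2 fold change of the members moved from -1.19 to -1.82 with a pseudocount of 0.1, -1.999 with 0.01, -0.84 with no minimum (10 members) and -1.54 after rescaling all libraries to 1 sum (9 members), and lay between -1.30 and -1.11 without 1 library. Fbln2 and Emilin1 passed in none of the alternatives, with adjusted p of 0.0515 to 0.957 and 0.379 to 0.982. Treating the replicate numbers as pairs (replicate block) left 6 members lower, 5 altered and a median of -1.19, left 0 lower and 2 higher relative to the stromal median, and changed no call.

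Relative to the stromal median, the number of members higher went from 2 to 5 with a pseudocount of 1, where Fbln1 (0.72, adjusted p = 0.00498) and Mfap2 (1.22, adjusted p = 4.47e-06) turned from lower to higher and Mfap5 (0.51, adjusted p = 0.0441) passed. A pseudocount of 1 shrinks the fall of genes near or under 1 RPKM more than that of the stromal markers. The number higher was 2 without any 1 library, also with moderated variance. The number lower went from 0 to 1 with gene-wise variance (Fbn1) and to 1 without Control replicate 3 (Fbln5, -0.75, adjusted p = 0.0241), and lay between 0 and 1 without 1 library. The log2 ratio of Mfap2 to Mfap5 lay between -0.87 and -0.39 and that of Fbln5 to Efemp2 between -0.99 and -0.60 without 1 library, where 2 libraries against 3 cannot pass. After median ratio scaling 3223 genes were lower and 2561 higher, and 4396 and 1529 after rescaling to the same sum. With no read counts, Eln, Fbn2 and Mfap2 are limited by depth, and changes of low genes are uncertain in size.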
